A study of Homo sapiens with 14 samples.

Results

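Small nucleolar RNAs (snoRNAs) guide the chemical modification of ribosomal RNA, and in human cells most are cut out of the introns of host genes. Described here are 8 noncoding snoRNA host genes, GAS5, SNHG1, SNHG5, SNHG6, SNHG7, SNHG8, SNHG12 and ZFAS1. They were listed by gene symbol, without a limit on any measured value, but with earlier results of these data known. They make up 8 of the 57756 genes and 124 of the 195553 isoforms listed for each of 14 RNA-seq libraries. The cells were A549, an established line from a human lung carcinoma. The study asked how the splicing factor U2AF1 and its mutant S34F, made from constructs named v1 and v3, act on splicing. The 7 groups of 2 libraries were untreated cells, cells with empty vector and control siRNA (control siRNA), cells with empty vector after U2AF1 siRNA (knockdown), and knockdown cells infected with virus carrying v1 wild type, v1 S34F, v3 wild type or v3 S34F. All groups other than untreated cells therefore carried a vector and an siRNA, and the 4 construct groups shared the U2AF1 siRNA with the knockdown. The labels do not say whether replicates were separate cultures, so the p-values cover the variation among these libraries alone, and that variation may be technical.

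The splicing of a host transcript has a double product. The excised intron yields the snoRNA, and the joined exons leave the nucleus as a spliced RNA whose short reading frames can be translated, which exposes it to nonsense-mediated decay, the pathway that removes RNAs with an early stop codon. Many hosts belong to the terminal oligopyrimidine class, whose RNAs begin with a C followed by a run of C and T and whose translation follows growth signals. U2AF1 is the small subunit of the factor that reads the AG at the 3′ end of an intron (the acceptor), and the S34F substitution is known to alter which base is preferred just before that AG. No library came from cells in which decay had been blocked, so the sensitivity of these transcripts to decay was not measured here.

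The start of the hosts is shown first because the class is defined by it. Start sites were matched by symbol in RefSeq (GRCh38.p14) for 7 of the 8 hosts, all but SNHG6. In the 3 sequences below, 30 bases before and 30 bases from the annotated start on are printed 5′ to 3′, with the pyrimidine run that begins at the start base in capitals.
SNHG5: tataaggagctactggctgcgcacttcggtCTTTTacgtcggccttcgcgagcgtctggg
SNHG12: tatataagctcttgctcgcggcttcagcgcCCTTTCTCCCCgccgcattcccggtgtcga
ZFAS1: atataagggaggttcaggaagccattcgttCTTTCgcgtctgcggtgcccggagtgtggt
These span chr6:85678704-85678763 (minus strand), chr1:28581844-28581903 (minus strand) and chr20:49278612-49278671 (plus strand). A C at the annotated start followed by at least 4 pyrimidines was found in these 3 of 7 hosts (42.9%) and in 4.07% of 35116 RefSeq promoters. The letters TATAA lay 40 to 21 bases before the start on the sense strand in 5 of 7 hosts (71.4%), all but GAS5 and SNHG1, against 3.77% of all promoters. On the antisense strand they were found in 14.3% of the hosts and 1.59% of all promoters. The matches are descriptions of these windows and depend on the annotated start base. The windows of GAS5, SNHG1 and SNHG8 do not hold the first base of the most abundant isoform, at 173867987, 62855236 and 118278709. They therefore do not show how those isoforms begin. For SNHG12 this could not be checked, since the length of its most abundant isoform, ENST00000531126, did not match the annotation used for exons. The most abundant SNHG12 isoform that did match, ENST00000464612, starts at 28581010, outside the printed window.

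The acceptors that the results below turn on are printed next as 20 intron bases followed by 3 exon bases, read from GENCODE 29 transcripts (GRCh38) that retain the intron. The last 3 intron bases are in capitals, since the first of these is the base that S34F is known to affect.
SNHG1 exon 2: ctttcctctgttgtctaCAGcat
SNHG1 exon 4: tgaatgattttttgattCAGgag
ZFAS1 exon 4: gacctgttaactttctaTAGgtt
SNHG8 acceptor within exon 1: cggacttgagtgctcatTAGgtc
The first exon base is 62854938 on chromosome 11 (minus strand) for SNHG1 exon 2, 62854064 for SNHG1 exon 4, 49280903 on chromosome 20 (plus strand) for ZFAS1 exon 4, and 118278944 on chromosome 4 (plus strand) for the SNHG8 acceptor. Exons are numbered in the most abundant isoform of each gene, and the SNHG8 acceptor lies inside exon 1 of that isoform, ENST00000602414, which keeps the intron before it. All are in exons of noncoding RNAs. Of 56 acceptors in host isoforms with a summed mean of at least 1 FPKM (fragments per kilobase of transcript, scaled to library size), 37 could be read in this way, and all 37 ended in AG. The base before the AG was C in 22, T in 14 and A in 1. SNHG8 had T at all 3 of its readable acceptors, whereas SNHG1 had T at 3 and C at 10 of 13.

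The targeted gene checked the labels. U2AF1 measured 117 and 119 FPKM with control siRNA, 16.2 and 28.9 FPKM in the knockdown, and 2114 to 3852 FPKM in the 8 construct libraries. FPKM does not separate the transgene from the endogenous gene. Relative depth ran from 0.798 to 1.20 times the mean library, and 13734 to 14705 genes reached 1 FPKM. A single isoform held 33.1% of the FPKM sum in the second v1 S34F library and 8.81% in the first knockdown library, against at most 1.06% elsewhere, and its part in the host levels was not tested. The summed FPKM of 5 epithelial markers was 2346 to 3331 in the 14 libraries, whereas that of 5 alveolar markers was 0 to 0.650 (SFTPA1 was listed at 0 throughout), of 6 fibroblast markers 6.99 to 10.2 (DCN was listed at 0 throughout) and of 6 leukocyte and endothelial markers 14.5 to 60.3. The labelled carcinoma line thus showed its epithelial keratins and adhesion genes, without markers of differentiated alveolar cells.

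All 8 hosts were well above the limit of 1 FPKM used for testing, and 99 of their isoform rows were of at least 200 bases. FPKM is per length, so levels can be set side by side. SNHG5 was the most abundant host, at 430 to 876 FPKM over the 14 libraries, followed by GAS5, at 235 to 674 FPKM. SNHG7 and SNHG12 were the lowest, at 37.8 to 84.1 and 29.2 to 103 FPKM. The other hosts lay between these.

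**Figure D1:**
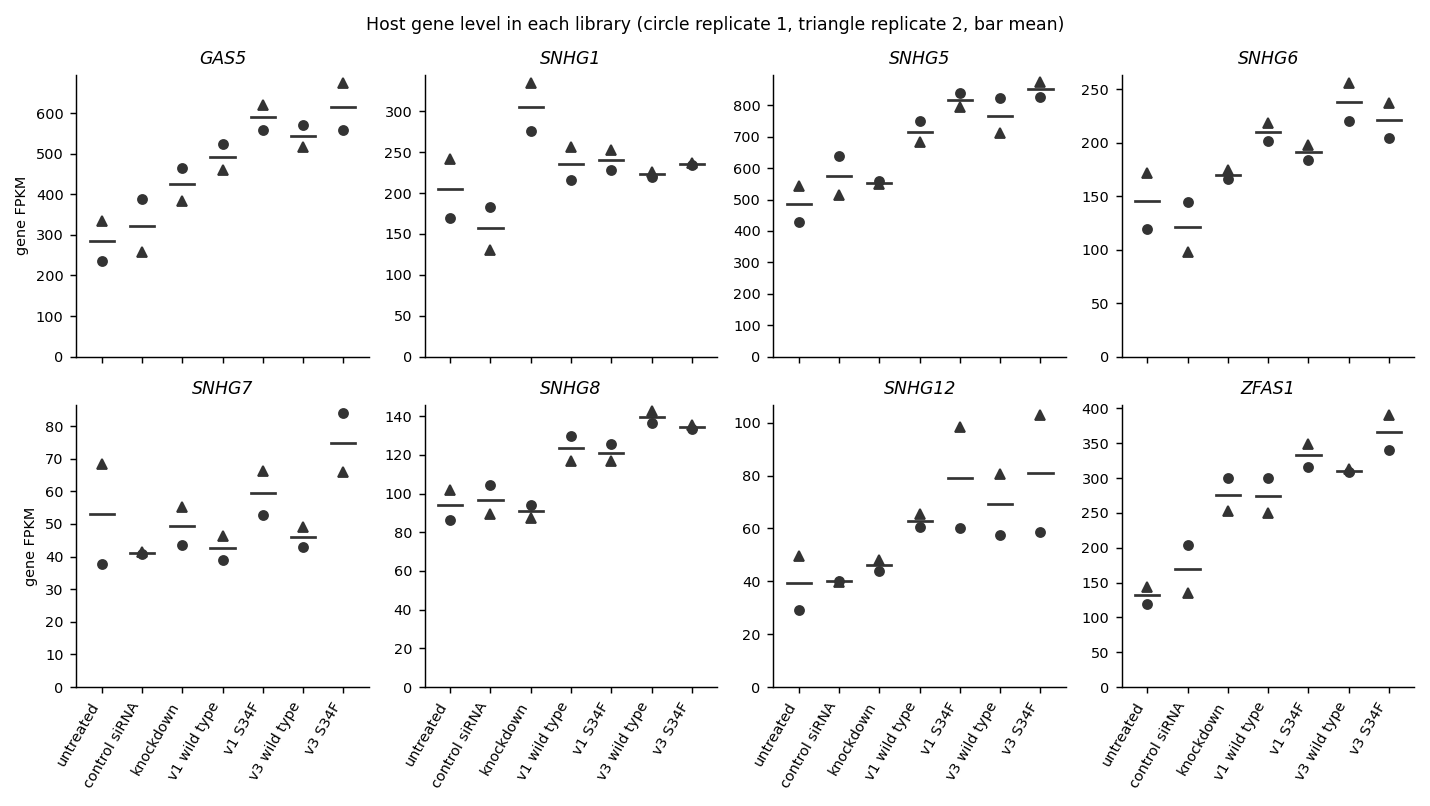
Gene FPKM of each host (vertical axes, linear, from 0) in the 7 groups (horizontal axes), with circles for replicate 1, triangles for replicate 2 and bars for the mean of both. The 8 construct libraries lie above the 4 untreated and control siRNA libraries in 6 panels, and SNHG1 peaks in the knockdown.

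The groups with a U2AF1 construct held the highest levels of most hosts. For GAS5, SNHG5, SNHG6, SNHG8, SNHG12 and ZFAS1, that is 6 of 8 hosts, all 8 construct libraries were above all 4 untreated and control siRNA libraries, which was the case for 4.49% of the 14233 genes tested. For SNHG5, SNHG6, SNHG8 and SNHG12 they were also above both knockdown libraries. The share of all genes with this further pattern was not computed, so it is a description. The exceptions were SNHG1, whose highest group was the knockdown, and SNHG7, whose groups overlapped at each step of the order of their means. From the lowest to the highest group mean, the fold was 2.78 for ZFAS1, 2.17 for GAS5, 2.05 for SNHG12, 1.97 for SNHG6, 1.95 for SNHG1, 1.83 for SNHG7, 1.75 for SNHG5 and 1.54 for SNHG8. Neighbouring groups in that order mostly overlapped. All 6 pairs of neighbours overlapped for GAS5 and SNHG7, 4 of 6 for SNHG1, SNHG5, SNHG6 and SNHG12, and 3 of 6 for SNHG8 and ZFAS1.

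Control siRNA cells were first set against untreated cells to show what the procedure itself did. No host of 8 was called in limma's test (adjusted p of at least 0.977), and none had an unadjusted p under 0.05. Of all genes 0% were called, and 730 of 14233 had an unadjusted p under 0.05. The differences on the log2(FPKM + 1) scale ran from −0.38 for SNHG1 to 0.34 for ZFAS1. Mitochondrially encoded transcripts moved with the control siRNA group. Their summed FPKM was 17287 and 35959 with control siRNA, 36465 to 57791 in untreated cells and 36114 to 39728 in the knockdown, and the 13 genes had a median log2 difference of −0.92 between control siRNA and untreated cells. The part of this in the comparisons with control siRNA below was not tested.

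SNHG1 was the host that rose when U2AF1 was depleted. Its introns hold several box C/D snoRNAs, and its spliced RNA is known for rapid turnover. It measured 183 and 130 FPKM with control siRNA and 276 and 335 FPKM in the knockdown, so the groups did not overlap. The log2 difference was 0.97 (SE 0.19, a fold of 1.96), with an adjusted p of 0.0279 by limma. It was the only host called, 1 of 8, where 0.787% of all genes were called higher and 2.85% in either direction. In untreated cells SNHG1 was at 169 and 241 FPKM, also below both knockdown libraries.

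The SNHG1 call depended on single libraries and on the fit. With a replicate block, used because same-numbered libraries deviated together, the adjusted p was 0.0086. It was 0.0908 without the first knockdown library, 0.204 without the second, 0.172 without the second control siRNA library, and 0.177 when only the groups compared were fitted.

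ZFAS1, a host of 3 box C/D snoRNAs antisense to the promoter of ZNFX1, followed SNHG1. It measured 204 and 135 FPKM with control siRNA and 299 and 252 FPKM in the knockdown. The log2 difference was 0.72 (SE 0.18), and both knockdown libraries were above both control libraries. Its adjusted p by limma was 0.0639, and 0.0266 with the replicate block, so over all 14 libraries it was called with the block and not without it. Leaving out the first control siRNA library also called it (log2 difference 1.02, adjusted p = 0.0248, limma), and without the second control siRNA library the difference was 0.43 (adjusted p = 0.324, limma). ZNFX1 was at 9.05 to 19.1 FPKM, and without a statement on strand its reads cannot be told apart from those of ZFAS1 where the genes overlap.

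The other hosts did not pass in the knockdown. SNHG6 measured 145 and 97.3 FPKM with control siRNA and 166 and 174 FPKM in the knockdown, a log2 difference of 0.51 (adjusted p = 0.191, limma). GAS5, whose introns hold a long row of box C/D snoRNAs, measured 387 and 259 FPKM and then 466 and 384 FPKM, a log2 difference of 0.42 (adjusted p = 0.314, limma). For GAS5 the groups overlapped. The log2 differences were 0.25 for SNHG7, 0.20 for SNHG12, −0.05 for SNHG5 and −0.09 for SNHG8. Counting every host, both knockdown libraries were above both control libraries in 5 of 8, against 24.7% of all genes, and the median log2 difference was 0.34 over the hosts and −0.01 over all genes.

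Within SNHG1, the isoforms that differ in which exons are joined were set side by side. The most abundant isoform, ENST00000539921, has 9 exons. Its exon 2 is 51 bases long and its exon 4 is 47 bases long. ENST00000537869 leaves out exon 4, and ENST00000545440 leaves out both exons. Neither differs from ENST00000539921 in those exons alone. ENST00000537869 has 9 exons and 1038 bases, and ENST00000545440 has 8 exons and 754 bases, against 9 exons and 1071 bases. ENST00000545440 measured 1.21 and 0.810 FPKM with control siRNA, 22.9 and 35.99 FPKM in the knockdown, and 0.419 to 2.99 FPKM in the 8 construct libraries. The knockdown libraries stood clear of the other 12. As a share of SNHG1 FPKM, that isoform went from 0.640% ± 0.025 (SD, n = 2) with control siRNA to 9.51% ± 1.75 (SD, n = 2) in the knockdown. It is outside the usage range of 5 to 95% that was tested and was singled out after its values were seen. With the range widened to 1 to 99%, its adjusted p in the knockdown comparison was 0.0101 (limma), as 1 of 197 isoforms called among 75206. Its mean usage over the 14 libraries, 1.84%, reached the limit of 1% only through the knockdown libraries. That p-value is therefore no separate support.

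The isoforms inside the tested range moved alongside without passing. No host isoform of the 29 tested was called by limma in the knockdown comparison, where 0.129% of all isoforms were called. Of the 29, 7 had an unadjusted p under 0.05, a count without the share of all isoforms beside it. ENST00000539921 held 34.1% and 41.6% of SNHG1 with control siRNA and 23.5% and 22.2% in the knockdown, a difference of −15.01 points (SE 4.49, adjusted p = 0.284, limma). Its FPKM nonetheless was 62.5 and 54.1 with control siRNA and 64.9 and 74.3 in the knockdown, so its amount was not lower where its share was. ENST00000537869 held 7.13% and 3.03% with control siRNA and 15.8% and 13.1% in the knockdown (9.36 points, adjusted p = 0.182, limma). In FPKM it was 13.1 and 3.94 with control siRNA and 43.6 and 43.8 in the knockdown.

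Acceptor usage summed these isoforms at single splice sites. Usage was the FPKM of isoforms that use a site as a percent of the FPKM of isoforms that span it. It was tested with limma for 31477 acceptors of 8947 genes, of which 25 were in the hosts, and the measure was added after the isoform values had been seen. The acceptor of SNHG1 exon 2 was used at 75.6% and 79.7% with control siRNA, and at 62.8% and 55.7% in the knockdown. In the 4 wild-type libraries it was used at 76.6% to 86.2%, so the knockdown libraries were below all of these. Fall and return, here and at the sites below, rest on the same 2 knockdown libraries and are not independent. The difference at exon 2 was −18.44 points (SE 4.06, adjusted p = 0.123, limma) in the knockdown. It was 22.66 points (SE 3.52, adjusted p = 0.0397, limma) on return of the wild type.

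The second of these was the sole host acceptor called in those comparisons, 1 of 25, where 0.435% of all acceptors were called. In the knockdown comparison 0 of 25 were called, against 0.089% of all acceptors, while 10 of 25 had an unadjusted p under 0.05, against 11.1% of all acceptors. Of those 10, 8 were in SNHG1, and sites in a gene share isoforms, so they are not separate observations. Usage of these 8 SNHG1 sites was higher in the knockdown at 5 and lower at 3. The exon 2 call did not last when any library was left out: over the 14 libraries left out in turn, its adjusted p was 0.0521 to 0.218, highest without the second knockdown library. It was 0.197 when only the groups compared were fitted and 0.0553 on an arcsine scale.

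One of the higher sites, at 62855216 on chromosome 11, lies inside exon 1 of ENST00000539921 and is an acceptor in 17 other isoforms. It was used at 43.4% and 38.7% with control siRNA, at 58.9% and 63.9% in the knockdown and at 41.2% to 44.5% in the wild-type libraries, so the knockdown libraries stood above the others. The knockdown difference was 20.38 points (SE 4.61, adjusted p = 0.129, limma) and the return was −18.60 points (SE 3.99, adjusted p = 0.0875, limma). Neither passed. ENST00000539921 spans this site without using it, so its lower share in the knockdown, given above, enters these values.

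SNHG1 exon 4 followed the same course as exon 2. Its acceptor was used at 78.9% and 86.1% with control siRNA, at 67.9% and 66.1% in the knockdown and at 81.6% to 85.0% in the wild-type libraries. The knockdown difference was −15.55 points (SE 3.73, adjusted p = 0.148, limma), and the return was 16.10 points (SE 3.23, adjusted p = 0.070, limma). When retained-intron isoforms were left out of the sums, the knockdown difference was −22.73 points (adjusted p = 0.0368, limma) at exon 4 and −25.34 points (adjusted p = 0.0558, limma) at exon 2. The acceptors of exons 2 and 4 have C before the AG.

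**Figure D2:**
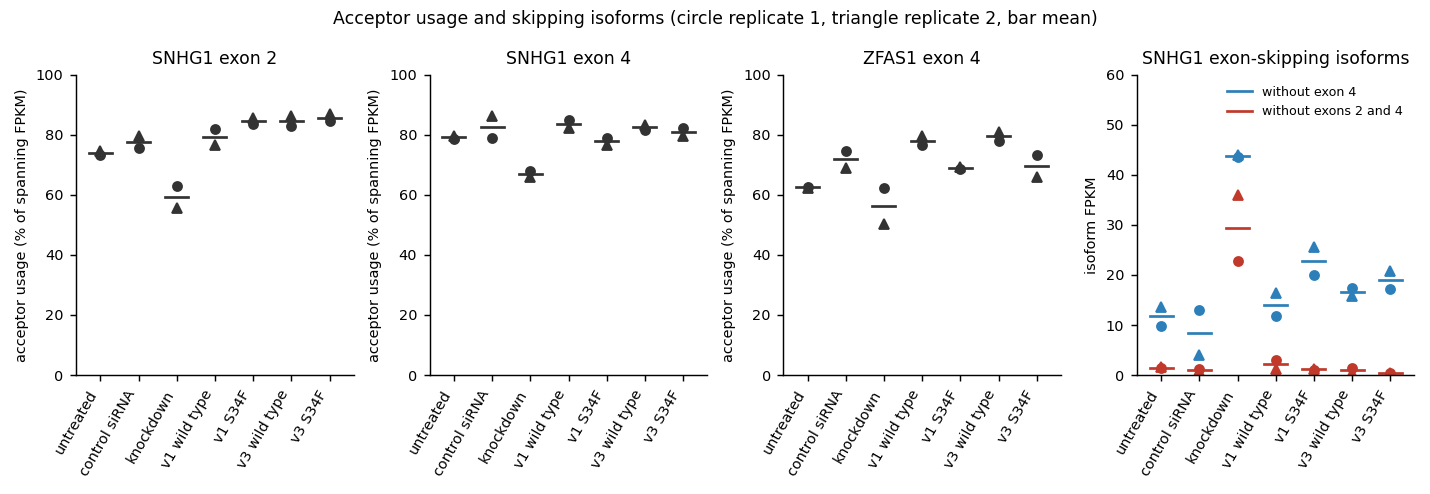
Usage of the acceptors of SNHG1 exons 2 and 4 and ZFAS1 exon 4 (percent of the FPKM of spanning isoforms) and FPKM of 2 SNHG1 isoforms that leave out exon 4, or exons 2 and 4, in each group, with circles for replicate 1, triangles for replicate 2 and bars for means. The knockdown libraries are the lowest in each usage panel, at 62.8% and 55.7%, 67.9% and 66.1%, and 62.2% and 50.1%, and the isoform without exons 2 and 4 rises above 3 FPKM in those libraries alone.

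In ZFAS1, 1 exon had its lowest usage in the same libraries, without passing the test. Exon 4 of ENST00000428008 is 62 bases long, and ENST00000326677 is without it. The acceptor was used at 74.7% and 69.0% with control siRNA, at 62.2% and 50.1% in the knockdown, and at 76.5%, 79.5%, 78.0% and 80.9% in the wild-type libraries. The knockdown difference was −15.71 points (SE 5.28, adjusted p = 0.286, limma) and the return was 22.58 points (SE 4.57, adjusted p = 0.0729, limma). Neither passed over all acceptors. Among acceptors of genes with at least 5 FPKM of spanning isoforms, an alternative added after the values were seen, the return had an adjusted p of 0.0392. Untreated cells used it at 62.7% and 62.4%, just above the higher knockdown library, and the control siRNA libraries also stood above the untreated ones.

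In SNHG8, which hosts a box H/ACA snoRNA, ENST00000602819 removes an intron that lies within exon 1 of the most abundant isoform. The acceptor of that intron was used at 32.0% and 41.5% with control siRNA, at 22.5% and 23.3% in the knockdown, and at 21.2% and 20.4% in untreated cells. The knockdown difference was −13.86 points (SE 4.19, adjusted p = 0.237, limma), which did not pass. Untreated and knockdown libraries lay together, below both control siRNA libraries. SNHG5, by contrast, was almost a single isoform. ENST00000414002, with 6 exons, held 93.7% of its FPKM on average, and its usage differed by −5.26 points (adjusted p = 0.483, limma) in the knockdown.

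Retained-intron isoforms are annotated for 5 of the 8 hosts, and for the others (SNHG7, SNHG8 and ZFAS1) none is. SNHG7 and SNHG8 still have an isoform with a snoRNA inside an exon. These are ENST00000447221, at 6.68% of SNHG7 on average, and ENST00000602573, at 3.95% of SNHG8. The isoforms annotated as retained intron are given as a description. In SNHG1 they held 46.4% ± 3.49 (SD, n = 2) of the FPKM with control siRNA, 27.5% ± 0.106 in the knockdown and 55.7% ± 6.75 in untreated cells. Their amount was not lower in the knockdown, at 84.1 FPKM against 72.0 with control siRNA. The other SNHG1 isoforms went from 84.6 to 221 FPKM, so the rise of the gene lay mostly in isoforms of other types. In GAS5 the retained share was 40.2% ± 11.6 with control siRNA and 41.4% ± 7.34 in the knockdown, where the spread between replicates was larger than the difference. In SNHG12 it was 46.8% ± 2.17 and 58.1% ± 5.24. Its largest part there was ENST00000470977, at 16.8 FPKM on average, whose length does not match GENCODE 29. The SNHG12 share thus rests mainly on a type taken by identifier alone. SNHG5 and SNHG6 had group means of at most 2.82% and 8.11%.

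**Figure D3:**
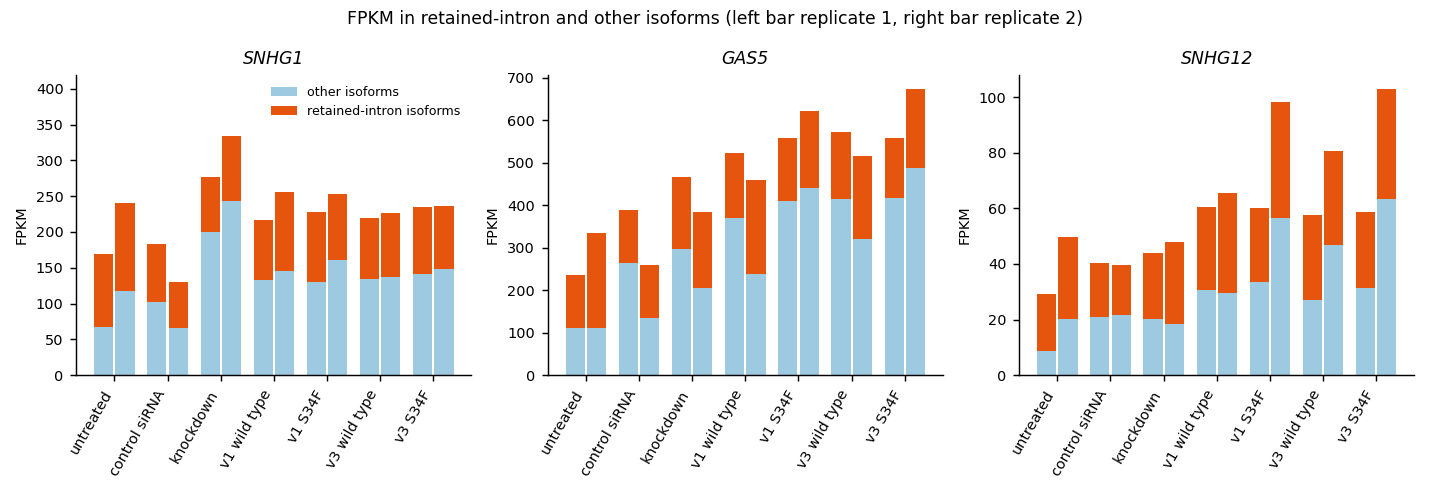
Stacked bars of FPKM in isoforms annotated as retained intron and in all other isoforms of SNHG1, GAS5 and SNHG12, with replicate 1 on the left and replicate 2 on the right of each group. In SNHG1 the knockdown adds isoforms of other types (221 FPKM on average against 84.6 with control siRNA) on a retained part of 84.1 FPKM.

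When wild-type U2AF1 was returned to depleted cells, SNHG8 rose. It measured 94.2 and 87.4 FPKM in the knockdown, 130 and 117 FPKM with v1 wild type and 136 and 143 FPKM with v3 wild type. No wild-type library overlapped the knockdown. The log2 difference was 0.53 (SE 0.10, a fold of 1.44), with an adjusted p of 0.0374 by limma. SNHG8 was 1 of 8 hosts called, where 1.04% of all genes were called higher. The call was lost without either knockdown library or any of the v1 wild-type, v3 wild-type and v3 S34F libraries, with an adjusted p of up to 0.438, and it was 0.0800 when only the groups compared were fitted.

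SNHG5 had the next smallest p. It is the most abundant host, which holds SNORD50B in an intron, and measured 558 and 548 FPKM in the knockdown, 749 and 682 FPKM with v1 wild type and 823 and 712 FPKM with v3 wild type (0.42, SE 0.12, adjusted p = 0.125, limma). The wild-type libraries were all above the knockdown, but the gene did not pass. SNHG1 went the other way. It measured 216, 256, 219 and 226 FPKM in the wild-type libraries against 276 and 335 FPKM in the knockdown, a log2 difference of −0.41 (SE 0.16, adjusted p = 0.256, limma). Every wild-type library was lower, and the gene did not pass. ZFAS1 stayed near its knockdown level, at 250 to 313 FPKM (0.08, 95% interval −0.27 to 0.44). In all, every wild-type library was above the knockdown in 4 of 8 hosts, against 18.1% of all genes, and below it in 1 of 8, against 16.3%.

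The wild-type libraries were next set against control siRNA, which asks whether construct cells returned to the control state. U2AF1 was far above its control level there, as given above. No host was called, where 0.436% of all genes were, and 7 of 8 hosts had an unadjusted p under 0.05, against 13.6% of all genes. In those 7 hosts, all but SNHG7, every wild-type library was above both control libraries, against 13.9% of all genes. The median log2 difference was 0.63 over the hosts and 0.01 over all genes.

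SNHG6 and ZFAS1 were the nearest to passing. SNHG6, a host of the box C/D snoRNA SNORD87 on chromosome 8, measured 201 to 256 FPKM in the wild-type libraries and 145 and 97.3 FPKM with control siRNA (log2 difference 0.90, SE 0.17, adjusted p = 0.0547, limma). For ZFAS1 the values were 250 to 313 against 204 and 135 FPKM (0.81, SE 0.16, adjusted p = 0.0581, limma). GAS5 differed by 0.70, SNHG12 by 0.70, SNHG1 by 0.56, SNHG8 by 0.44 and SNHG5 by 0.37, and SNHG7 by 0.10 (95% interval −0.36 to 0.57). With the replicate block, 4 hosts were called by limma: SNHG6 (adjusted p = 0.0163), ZFAS1 (0.0205), SNHG8 (0.0332) and SNHG12 (0.0492). The block changes the fit of all genes, and this count is not set against the share of all genes called with it. Without the first control siRNA library 2 hosts were called, and without either untreated library 1.

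**Figure D4:**
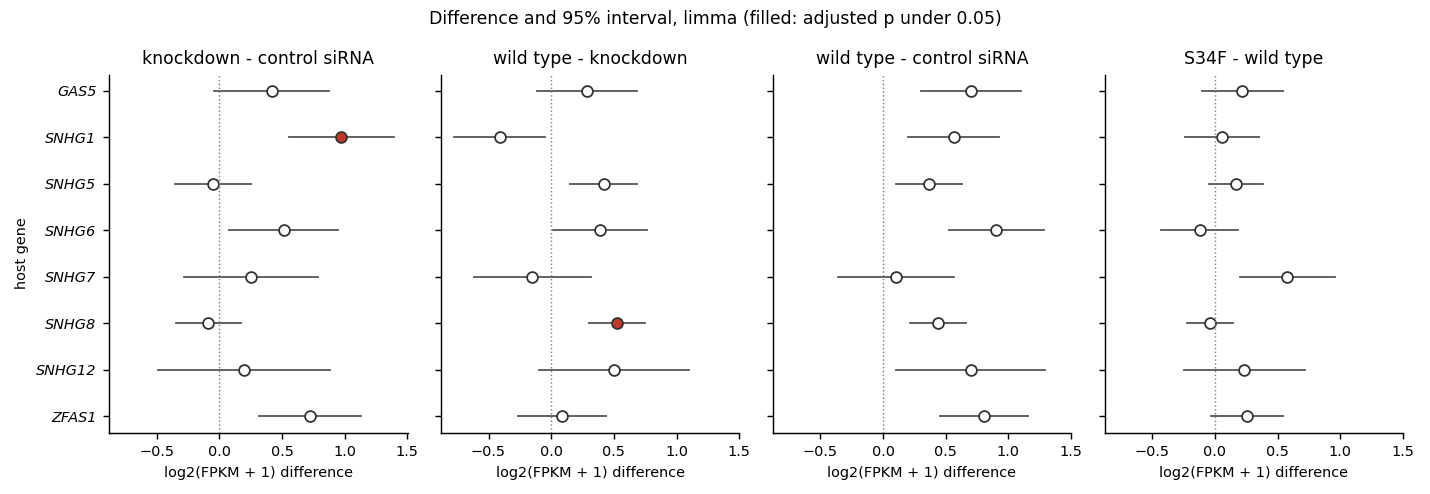
Differences in log2(FPKM + 1) for each host in 4 comparisons, with points for the limma estimate, lines for the 95% interval, and filled points where the adjusted p is under 0.05. SNHG1 in the knockdown (0.97) and SNHG8 on return of the wild type (0.53) are the filled points, and 7 of 8 intervals for wild type against control siRNA lie above 0.

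The S34F constructs were compared with the wild-type ones over both v1 and v3. No host was called, where 1.85% of all genes were, and 1 of 8 had an unadjusted p under 0.05, against 15.9% of all genes. That host was SNHG7, the locus of the box H/ACA snoRNAs SNORA17A and SNORA17B. It measured 38.9 and 46.3 FPKM with v1 wild type and 52.9 and 66.2 FPKM with v1 S34F. With v3 it measured 42.9 and 49.1 FPKM for the wild type and 84.1 and 65.8 FPKM for S34F. Every S34F library was above every wild-type library, as in 2 of 8 hosts and 6.89% of all genes. The log2 difference was 0.58 (SE 0.17), with an adjusted p of 0.129 by limma and 0.0350 with the replicate block.

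Part of the SNHG7 value came from a row of 130 bases, that of SNORA17B, which sits under the SNHG7 symbol. It was listed at 30.5 FPKM in the first v3 S34F library (authors' bounds 0 to 130) and at 15.5 FPKM in the second untreated library (0 to 85.3), and at 0 in the other 12. With this row, the SNHG7 difference by construct was 0.47 in v1 (adjusted p = 0.574, limma) and 0.69 in v3 (adjusted p = 0.603, limma). Without rows under 200 bases it was 0.47 in v1, 0.37 in v3 and 0.42 over both. The S34F effect did not differ detectably between constructs in any host: the difference of the effects ran from −0.10 to 0.22, with a lowest unadjusted p of 0.544 in limma's interaction test. The highest of these, 0.22, was that of SNHG7 with the SNORA17B row included.

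ZFAS1 was the second host whose S34F libraries were all above the wild-type ones, at 316, 349, 340 and 391 FPKM against 300, 250, 308 and 313 FPKM (0.26, SE 0.13, adjusted p = 0.381, limma). The highest wild-type and lowest S34F libraries lay close together. GAS5 differed by 0.22, SNHG12 by 0.24, SNHG5 by 0.17, SNHG1 by 0.06, SNHG8 by −0.04 and SNHG6 by −0.12. The SNHG12 spread was wide, at 60.1 and 98.4 FPKM in v1 S34F and 58.7 and 103 FPKM in v3 S34F, with the second library the higher each time.

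At the level of splice sites, the S34F libraries all lay on 1 side of the wild-type ones at 5 of 25 host acceptors, in ZFAS1, SNHG6, GAS5 and SNHG1, and none was called. The ZFAS1 exon 4 acceptor, with T before the AG, was used at 68.6% and 69.2% with v1 S34F and 73.3% and 65.8% with v3 S34F, all below the 4 wild-type libraries (76.5% to 80.9%). The difference was −9.52 points (SE 3.73, adjusted p = 0.287, limma), so it did not pass over all acceptors. It was the 1 of 25 host acceptors lower in every S34F library, against 5.68% of all acceptors. ENST00000326677, which skips the exon, held 18.1%, 16.7%, 15.4% and 20.3% of ZFAS1 in the S34F libraries and 10.7% to 12.6% in the 4 wild-type ones.

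In SNHG6 the direction was the opposite. Its main isoform, ENST00000520944, has 4 exons, and ENST00000521399 leaves out exon 2, of 112 bases. At 302 bases against 638, ENST00000521399 differs from the main isoform in other parts too. The exon 2 acceptor was used at 56.8%, 51.8%, 56.3% and 47.3% in the wild-type libraries, and at 66.8%, 66.4%, 62.0% and 60.05% in the S34F libraries. The difference was 10.77 points (SE 3.63, adjusted p = 0.206, limma), and no S34F library overlapped the wild type. The GAS5 sites were those of exon 10 (8.87 points, adjusted p = 0.434, limma) and exon 4 (2.80 points, adjusted p = 0.608, limma), and the SNHG1 site that of exon 8 (3.90 points, adjusted p = 0.655, limma). In all, 4 of 25 host acceptors were higher in every S34F library, against 4.01% of all acceptors. By limma 0 of 25 were called, against 1.32%. An unadjusted p under 0.05 was reached by 2 of 25, a count without the share of all acceptors beside it. With control siRNA the SNHG6 site was used at 67.4% and 73.3%, so the wild-type libraries were below the control and the S34F libraries nearer to it. The base before the AG of the SNHG6 site could not be read from the transcripts used. Isoform usage gave 0 of 29 called by limma for S34F as well, against 0.681% of all isoforms. Here 2 of 29 had an unadjusted p under 0.05, again without the share of all isoforms.

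SNHG1 exon 2 was used at 83.4% to 86.8% in the S34F libraries and 76.6% to 86.2% in the wild-type ones, which overlapped. ENST00000545440 measured 0.419 to 1.29 FPKM with S34F. This isoform, without exons 2 and 4, was at 1.38 and 1.57 FPKM in untreated cells. ENST00000537869, which of the exons of ENST00000539921 leaves out exon 4 alone, went the other way. It was at 22.7 ± 4.00 and 19.0 ± 2.52 FPKM with v1 and v3 S34F. In untreated cells it was at 11.8 ± 2.63 FPKM (SD, n = 2 each). With v1 and v3 wild type it was at 14.1 ± 3.21 and 16.6 ± 1.07 FPKM.

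The v3 wild-type construct gave values above those of v1 in 7 of 8 hosts, against 51.8% of all genes. None was called by limma, where 0% of genes were called, and 0 of 8 had an unadjusted p under 0.05. The median log2 difference of the hosts was 0.13. The snoRNAs themselves were not measured by these libraries. Of 25 host rows under 200 bases, 1 reached 1 FPKM in any library, the SNORA17B row above, and the separate rows for SNORD78, SNORD87, SNORD99, SNORD12, SNORD12B and SNORD12C were listed at 0 throughout.

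Hosts resembled each other to different degrees over the 14 libraries, which share groups and replicate series, so these correlations are descriptions. GAS5 and ZFAS1 were the most alike (Pearson r = 0.969 on log2(FPKM + 1)). SNHG5 was most like GAS5 (0.935), SNHG8 most like SNHG5 (0.904), SNHG6 and SNHG12 most like GAS5 (0.859 and 0.848). SNHG1 and SNHG7 stood apart, with highest values of 0.654 (to SNHG6) and 0.535 (to SNHG12), and the lowest of all pairs was SNHG1 with SNHG8 (0.171). The 5 other genes whose levels were most like the mean standardized profile of the hosts were CAV2 (0.954), OCLN (0.954), RPS18 (0.953), TRAF4 (0.943) and PLD6 (0.938).

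Further genes of snoRNA production and RNA decay were read from lists. Of 10 other noncoding hosts tested, 2 rose and 1 fell in the knockdown, where 2.85% of all genes were called. SNHG17 went from 96.2 ± 8.48 to 152 ± 22.7 FPKM (SD, n = 2; log2 difference 0.65, adjusted p = 0.0445, limma), and DANCR from 25.5 ± 2.71 to 38.8 ± 0.333 FPKM (0.59, adjusted p = 0.0429, limma). SNHG14, the long host of imprinted snoRNA clusters, went from 25.9 ± 2.04 to 14.1 ± 0.669 FPKM (−0.83, adjusted p = 0.0358, limma). The median of the list was 0.53 in that comparison, and −0.09 on return of the wild type, where the 8 hosts had 0.34.

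Among 40 protein-coding snoRNA hosts, GNL3, a nucleolar GTP-binding protein, was the 1 called in the knockdown (0.44, adjusted p = 0.0332, limma), a share close to the 2.85% of all genes. IPO7, a nuclear import receptor, and CWF19L1 fell with S34F (−0.64, adjusted p = 0.0252, and −0.59, adjusted p = 0.0496, limma), 2 of 40 where 1.85% of all genes were called. None of 19 nonsense-mediated decay factors, 16 snoRNA-protein complex members, 35 cytosolic ribosomal proteins or 16 mRNAs known to be decay-sensitive was called by limma in any of the 9 comparisons. At an unadjusted p under 0.05, the knockdown had 6 of 19 decay factors and 5 of 16 complex members, against 18.9% of all genes. Wild type against control siRNA had 16 of 35 ribosomal proteins, against 13.6%. Of the 16 decay-sensitive mRNAs, 6 passed this unadjusted limit with S34F, against 15.9%, and 6 on return of the wild type, against 15.8%. These were the highest counts of each list over the comparisons. With S34F, 15 of the 16 decay-sensitive mRNAs had a difference above 0, against 54.6% of all genes, with a median of 0.34 where all genes had 0.02 and the 8 hosts 0.20. Against control siRNA, the wild-type libraries had 35 of 35 ribosomal protein genes above 0, against 52% of all genes, with a median of 0.22. This was not particular to that comparison. The same list had 33 of 35 above 0 in the knockdown, with S34F and for v3 against v1 wild type. It had 29 for control siRNA against untreated and 25 on return of the wild type.

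Of 18 exosome and decapping genes, 1 rose and 1 fell with S34F, where 1.85% of all genes were called. XRN2, which fell, encodes a nuclear 5′ to 3′ exonuclease that acts in transcription termination and ribosomal RNA processing. It measured 77.6 ± 9.37 and 79.2 ± 11.2 FPKM with v1 and v3 wild type and 36.6 ± 9.08 and 40.6 ± 10.8 FPKM with S34F (SD, n = 2 each). The log2 difference was −1.02 (SE 0.15, adjusted p = 0.0091, limma). EXOSC7, an exosome subunit, rose with S34F (0.43, adjusted p = 0.0458, limma), and EXOSC9 rose in the knockdown (0.56, adjusted p = 0.0292, limma), 1 of 18 where 2.85% of all genes were called.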

How the data were processed

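RNA-seq of 14 A549 libraries was used, in 7 groups of 2 named from the sample titles. The submitters' processing notes name Trimmomatic 0.30, TopHat2 2.0.12 and the build GRCh37. Which quantifier and annotation were used is not given in the sources used here. The deposited tables hold, per the file headers, FPKM per isoform with confidence bounds, and a coverage signal that served for relative depth alone. Read numbers are unknown, and no scaling across libraries by the authors is recorded.

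Gene FPKM was the sum over isoforms. limma 3.58.1 (R 4.3.3, intensity trend) was fitted to log2(FPKM + 1) of 14233 genes with a mean of at least 1 FPKM, over all 7 groups (7 residual and 3.92 prior degrees of freedom). A fold is thus on the log2(FPKM + 1) scale and understates changes of low genes. The same model was fitted to isoform usage (percent of gene FPKM) of 41727 isoforms with mean usage of 5 to 95%, and to acceptor usage. P-values were adjusted by Benjamini-Hochberg over all features in each of 9 comparisons (4 for acceptors), and called under 0.05. Of the files' genes, 14 with a failed estimate were left out. The fit was tested on simulated data.

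Same-numbered libraries of 2 groups deviated together from their group means in all 21 pairs of groups (correlation 0.160 to 0.571), so replicate numbers were taken to pair the libraries, and a fit with a replicate block was an alternative. Exon structures, isoform types and acceptor bases came from GENCODE 29 and start sites from RefSeq (GRCh38.p14). In SNHG12, 10.7% of FPKM lay in isoforms matched to GENCODE 29 by length, against at least 93.7% in the other hosts. Named isoforms were the most abundant per host, at most 2 more with the largest usage difference, and those called. At most 4 called genes per list were named. The host genes and lists were chosen with earlier results of these data known. Alternatives were other pseudocounts, filters, scalings, fits and leaving out each library.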

Additional observations from a re-analysis of the deposited data

How the results depend on the processing

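Counts of hosts called depended on the fit. In the knockdown, where 1 host was called, 0 were called with no filter on low values, with quantile normalization or with only the groups compared, 2 with the replicate block, and 0 to 2 when 1 library was left out. On return of the wild type, where 1 was called, 0 were called with no filter, median scaling or only the groups compared, and 0 to 1 with 1 library left out. Against control siRNA, where 0 were called, 2 were called at a mean of at least 5 FPKM, 1 without isoforms under 200 bases, 4 with the replicate block, and 0 to 2 with 1 library left out. For S34F the replicate block called 1 host (SNHG7), where 0 were called without the pairing. Isoform usage of 1 to 99% called 1 host isoform in the knockdown and 2 on return of the wild type, where 0 were called. The isoform called in the knockdown, ENST00000545440, entered that range only through its knockdown values. For acceptor usage, whose alternatives were chosen after seeing the data, leaving out retained-intron isoforms called 2 host sites in the knockdown (0 before) and 3 on return (1 before). On return, 4 were called with at least 5 FPKM of spanning isoforms, 0 on an arcsine scale or with only the groups compared, and 0 with any library left out. The block changed no other host count. An alternative also changes the calls over all features, and these host counts are not set beside those shares.

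Some differences that were not called changed direction when 1 library was left out, and their ranges over the libraries left out follow. For control siRNA against untreated, GAS5 gave −0.11 (without the first control siRNA library) to 0.47, SNHG6 −0.55 to 0.019 (without the second control siRNA library), SNHG7 −0.72 to 0.12 (without the second untreated library), and SNHG8 −0.079 and SNHG12 −0.31 (without the first untreated library) to 0.16 and 0.44. For the knockdown, SNHG5 gave −0.21 to 0.11 and SNHG8 −0.20 to 0.023, both above 0 without the first control siRNA library. On return of the wild type, SNHG7 gave −0.31 to 0.014 and ZFAS1 −0.038 to 0.21, both reversed without the second knockdown library. For S34F, SNHG1 gave −0.0049 (without the first v1 wild-type library) to 0.12. Without retained-intron isoforms the SNHG1 acceptor at 62855466 gave −3.30 points in the knockdown and 5.28 points on return, reversing both. In all, 425 counts of hosts, isoforms or acceptors called stayed equal or nearly so under an alternative, and 47 moved. Most counts were 0 before any alternative, so staying equal shows little. Such counts do not show that the same members stayed called. A group left with 1 library was assumed to vary like the others, and such fits have fewer degrees of freedom. With 2 libraries a group and unknown read numbers, small differences were not detectable.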
